A study of Mus musculus with 13 samples.

Results

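The circadian clock genes described here are 10 genes of 23785 measured in any of the deposited tables. They were listed by name as core parts of the clock and its direct outputs, with earlier results of these data known, and all 10 were found in each of the 3 tables by their Entrez gene numbers. Arntl and Clock are the activators, Per1, Per2, Per3 and Cry1 the repressors that act on them, Nr1d1 and Nr1d2 the REV-ERB repressors, and Dbp and Tef the output factors. Liver RNA of 13 C57 mice aged 3 months (males of C57BL6 background in the study's methods) was sequenced. The no BDL group was 5 non-treated mice without bile duct ligation (BDL), a surgical model in which bile flow out of the liver is blocked and cholestasis and fibrosis follow. The miR-Ctrl BDL group was 4 ligated mice given a control oligonucleotide, and the anti-miR-873-5p BDL group was 4 ligated mice given a hairpin inhibitor of the microRNA miR-873-5p. By the study's methods the injections were made in the tail vein with 60 µg per mouse on days 3 and 5 after surgery, and livers were removed on day 7. The non-treated mice had neither surgery nor oligonucleotide, so these cannot be told apart in a comparison with them. The hour of day at which each liver was removed, and the light and feeding schedule, are not given in the sources used here.

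The clock is a feedback loop that runs in nearly every cell. The products of Clock and Arntl (also called Bmal1) pair and switch on genes that carry E-boxes, among them the Per, Cry, Nr1d1, Nr1d2, Dbp and Tef genes. PER and CRY proteins then block that pair, while the REV-ERB proteins made from Nr1d1 and Nr1d2 shut off Arntl through ROR response elements, so that Arntl RNA is low when its targets are high. DBP and TEF are PAR bZIP transcription factors that pass the rhythm through D-boxes to liver genes of bile acid, xenobiotic and energy metabolism. The level of most of these RNAs in a normal liver therefore depends strongly on the hour at which the tissue is taken.

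The control elements of the loop were looked up in the RefSeq promoter windows of GRCm38.p6, each with 250 bases before and 50 bases after a transcription start. Windows were found for 9 of the 10 members (14 windows), with Per2 as the member without one. Searched on both strands were the E-box CACGTG, the D-box as TTATGTAA or TTACGTAA, and the ROR response element (RORE), an A/T-rich stretch followed by AGGTCA or GGGTCA. Across all 32851 windows of these tables, 7.15% held the E-box, 1.06% the D-box and 0.384% the RORE. An E-box was present for 3 of the 9 members (Per1, Cry1 and both starts of Tef), a D-box for 1 (Per3) and a RORE for 1 (Arntl). These counts are of genes and the shares above are of windows, and a gene with several windows has more chances of a match. For each member with a match, the upstream part of 1 window (for Arntl 30 bases around the match) is shown, so that the elements can be read beside the levels of these genes, and the capitals mark the matches. A match is a description of these letters only, and no binding was measured.

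Each sequence is given on the strand of its gene. The E-box of Per1 begins 166 bases before the start, that of Cry1 60 bases and that of Tef 138 bases before it, while the D-boxes of Per3 begin 205 and 158 bases before it. The RORE of Arntl begins 26 bases after the transcription start.
Per1, chr11:69098699-69098948, plus strand: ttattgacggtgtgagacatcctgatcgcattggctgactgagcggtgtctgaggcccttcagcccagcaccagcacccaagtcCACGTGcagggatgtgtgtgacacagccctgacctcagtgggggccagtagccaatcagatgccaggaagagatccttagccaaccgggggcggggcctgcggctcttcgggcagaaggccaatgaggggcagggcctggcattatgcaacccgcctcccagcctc
Cry1, chr10:85185055-85185304, minus strand: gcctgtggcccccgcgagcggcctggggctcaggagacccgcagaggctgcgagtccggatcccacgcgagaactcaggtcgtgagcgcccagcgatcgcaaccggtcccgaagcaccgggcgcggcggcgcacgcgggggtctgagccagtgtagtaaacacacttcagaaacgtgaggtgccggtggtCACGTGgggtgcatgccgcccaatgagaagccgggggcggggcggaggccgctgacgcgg
Tef, chr15:81811164-81811413, plus strand: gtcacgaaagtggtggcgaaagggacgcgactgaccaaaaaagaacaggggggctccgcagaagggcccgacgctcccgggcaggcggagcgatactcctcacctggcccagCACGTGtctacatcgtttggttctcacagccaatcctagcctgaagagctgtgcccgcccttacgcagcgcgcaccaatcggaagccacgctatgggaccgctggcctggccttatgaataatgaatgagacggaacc
Per3, chr4:151044666-151044915, minus strand: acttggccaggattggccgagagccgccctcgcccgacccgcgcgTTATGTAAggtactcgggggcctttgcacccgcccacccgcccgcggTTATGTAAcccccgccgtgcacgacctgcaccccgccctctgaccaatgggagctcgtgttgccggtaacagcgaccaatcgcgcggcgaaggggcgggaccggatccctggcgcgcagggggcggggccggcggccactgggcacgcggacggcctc
Arntl, chr7:113207527-113207556, plus strand: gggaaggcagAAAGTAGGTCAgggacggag

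The depth was 12185333 to 19689037 gene reads in each mouse. Levels are counts per 1000000 reads (CPM), scaled with edgeR's TMM over all 13 mice, and fold changes come from a fit of each deposited table on its own. All 3 groups expressed hepatocyte genes, with a summed level of 39900 to 115000 CPM over the 7 of 8 markers that could be put on this scale. The clock genes were measured in whole liver, where fewer cells of a type and less RNA per cell cannot be told apart. Against no BDL, all 5 cholangiocyte markers rose in both BDL groups. Of 6 macrophage and leukocyte markers 5 rose in miR-Ctrl BDL and 1 in anti-miR-873-5p BDL. Of 6 stellate cell and fibroblast markers 4 and 5 rose, and of 8 hepatocyte markers 5 and 1 fell. These counts stand beside 35.7% of all genes called with miR-Ctrl and 21.5% with anti-miR-873-5p. The leukocyte count with miR-Ctrl was 3 without miR-Ctrl mouse 2. With anti-miR-873-5p it rested on single mice, at 5 without no BDL mouse 5, 4 without anti-miR-873-5p mouse 2, 2 without anti-miR-873-5p mouse 1 and 0 without any 1 of the others, and the hepatocyte count was 4 without anti-miR-873-5p mouse 2. The part of this change of cell types in the clock gene values was not tested. Mouse 3 given miR-Ctrl and mouse 2 given anti-miR-873-5p are in the tables against no BDL and are not in the table of both BDL groups, which holds 3 mice per group. The submitters named that table as one without outliers. By the study's methods any outliers were left out after clustering and principal component analysis. Nothing in the labels says that mice with the same number belong together.

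The clock genes varied widely among the 5 mice without BDL, with Arntl and Dbp at opposite extremes. Arntl was at 6.22, 14.5, 0.687, 0.658 and 25.8 CPM in no BDL mice 1 to 5. Mice 3 and 4 each had 8 reads of it (95% Poisson interval 3.45 to 15.8, which covers counting error only), against 325 reads in mouse 5. Clock, its partner, followed the same direction over a narrower range, at 25.4, 38.8, 14, 15.9 and 30.9 CPM.

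Dbp, whose product drives D-box genes, ran the other way at 91.5, 33.2, 214, 164 and 2.31 CPM in no BDL mice 1 to 5, a range of 92.8-fold. Tef was at 132, 87.8, 264, 209 and 25 CPM in the same mice. In both, mice 3 and 4 were the highest and mouse 5 the lowest, with mice 1 and 2 between them.

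The Per genes ran with Dbp, with mice 3 and 4 highest and mouse 5 lowest. Per3 was at 23.2, 7.53, 52.8, 37.0 and 1.59 CPM, Per1 at 24.1, 7.91, 72.9, 46.8 and 7.16 CPM and Per2 at 20, 16.8, 42.9, 43.1 and 6.52 CPM in no BDL mice 1 to 5. Cry1 was an exception, at 5.62, 11, 7.13, 5.75 and 11.7 CPM, with mouse 5 the highest. Both REV-ERB genes were lowest in mouse 5, but their high ends differed. Nr1d2 was at 80.2, 55.8, 98.4, 83.5 and 23.8 CPM, whereas Nr1d1 was at 178, 171, 135, 112 and 35.8 CPM and was highest in mice 1 and 2.

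**Figure D1:**
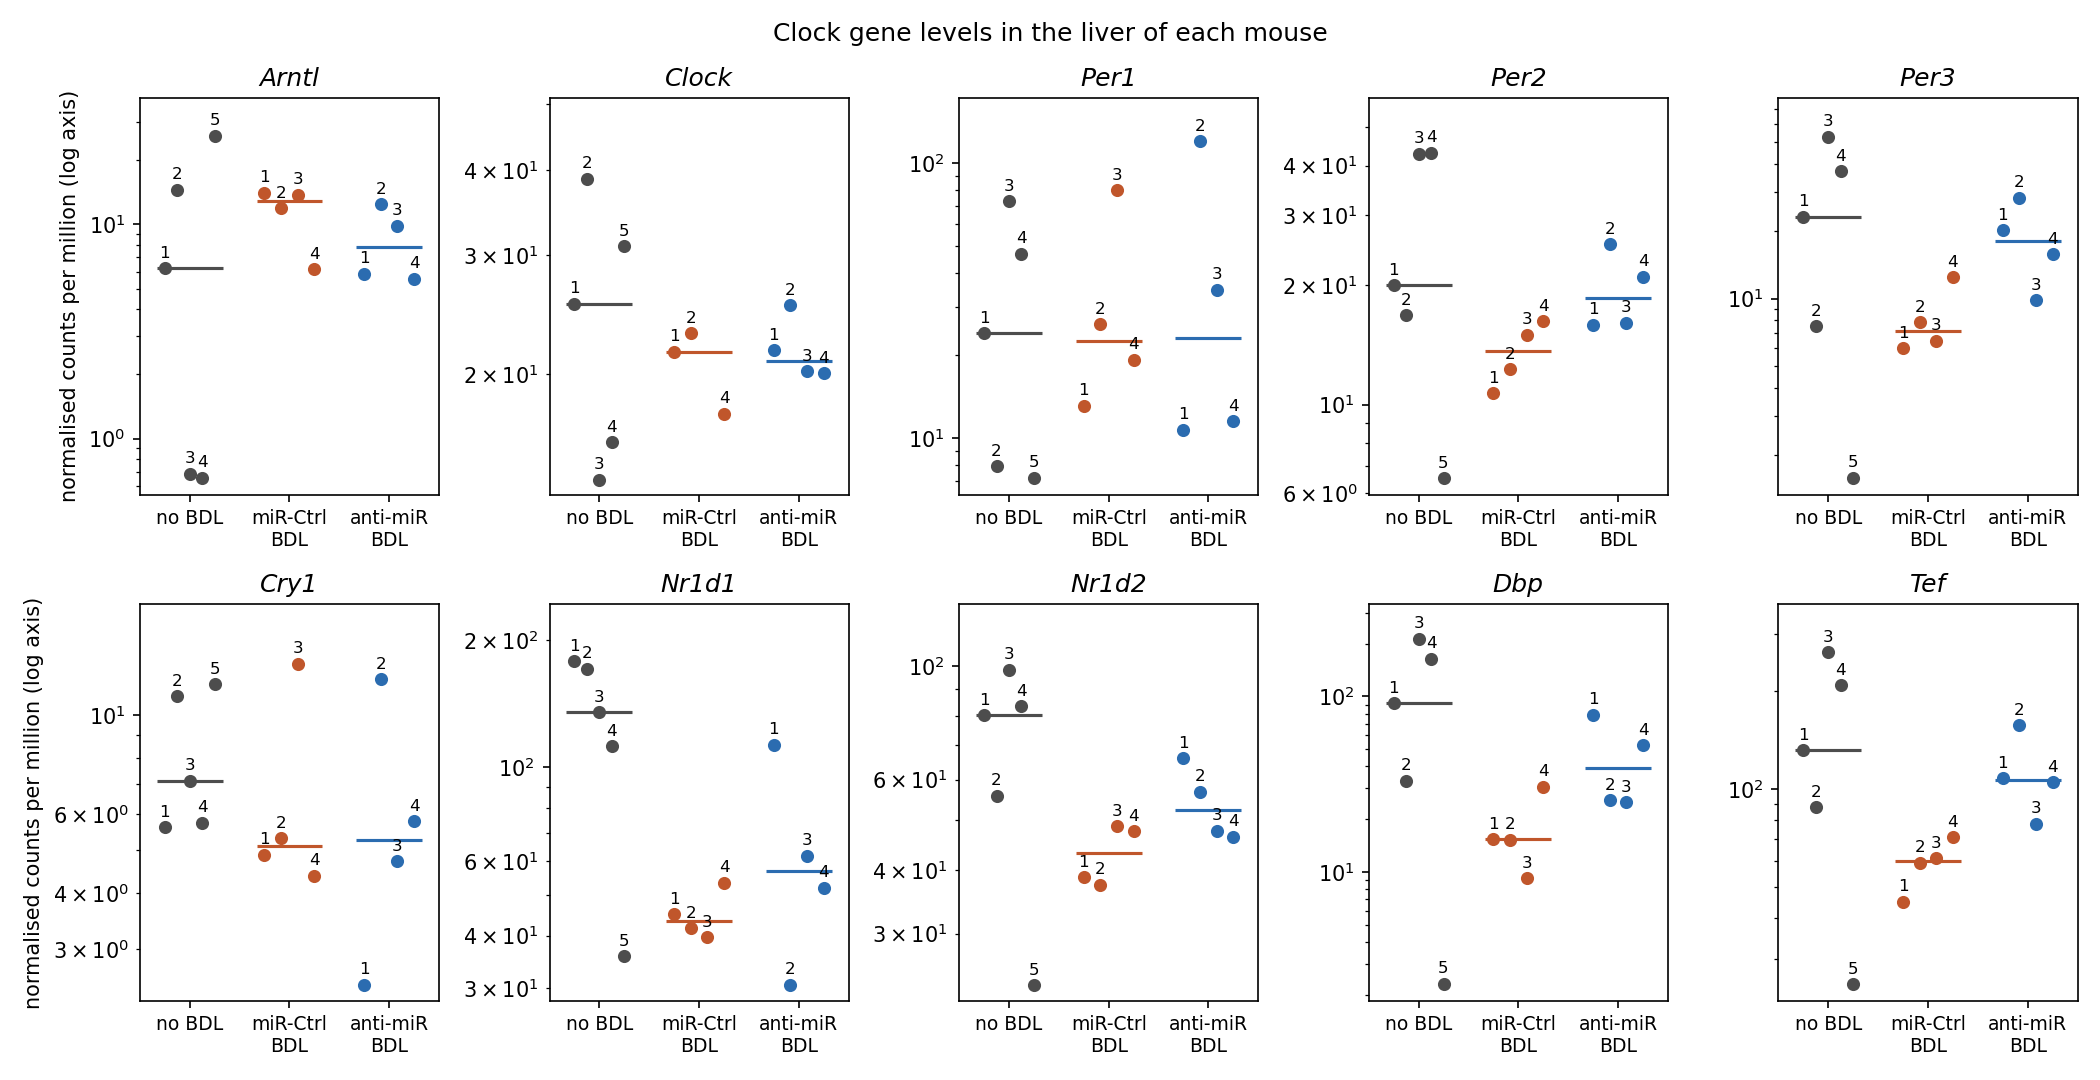
Level of each of the 10 clock genes in normalised CPM (log axis, its range set for each gene) in the 5 no BDL, 4 miR-Ctrl BDL and 4 anti-miR-873-5p BDL mice. Points are mice with their number within the group and lines are group medians (Clock has no value on this scale for miR-Ctrl mouse 3). In no BDL mice Arntl spans 0.658 to 25.8 and Dbp 2.31 to 214 in the opposite order, and for both genes the BDL mice lie within these ranges.

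With mice 3 and 4 highest and mouse 5 lowest, 6 of the 10 members (Per1, Per2, Per3, Nr1d2, Dbp and Tef) had 1 common order of extremes among the no BDL mice, and Arntl had exactly its reverse. Of 12645 genes with a mean of at least 10 reads, 5.5% had the first order and 4.65% the reverse. This order was picked after the values were seen and carries no test. The within-mouse ratio of Dbp to Arntl reads, which does not depend on scaling, was 14.7, 2.29, 312, 250 and 0.0892 in no BDL mice 1 to 5, a span of 3500-fold. The ratio of Nr1d1 to Arntl ran from 1.38 (mouse 5) to 197 (mouse 3) and that of Per2 to Arntl from 0.252 (mouse 5) to 65.5 (mouse 4). In the BDL mice the ratio of Dbp to Arntl stayed between 0.677 and 4.95 with miR-Ctrl and between 2.07 and 13.4 with anti-miR-873-5p, inside the range of the no BDL mice.

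The spread within a group was given as the SD of log2 CPM. In no BDL mice its median over the 10 members was 1.23, beside 0.24 over the 12645 genes. All 10 members lay above the median gene and 6 above the 95th percentile. Dbp (SD 2.64) and Arntl (SD 2.42) ranked 16 and 26 among all these genes, and the narrowest members, Cry1 (SD 0.50) and Clock (SD 0.62), were at percentiles 80.9 and 87.1. In miR-Ctrl BDL the members' median SD was 0.37 beside 0.28 over all genes, and 0 of 10 passed the 95th percentile. Per1 (SD 1.12) came closest there, at percentile 94.9. In anti-miR-873-5p BDL the members' median SD was 0.60 beside 0.31, and 1 passed that percentile (Per1, SD 1.64). In each BDL group 1 mouse was well above the others in Per1, at 79.7 CPM (miR-Ctrl mouse 3) and 120 CPM (anti-miR-873-5p mouse 2). Groups of 5 and 4 mice (3 for Clock in miR-Ctrl BDL) give imprecise SDs, and the difference in spread between groups was not tested.

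**Figure D2:**
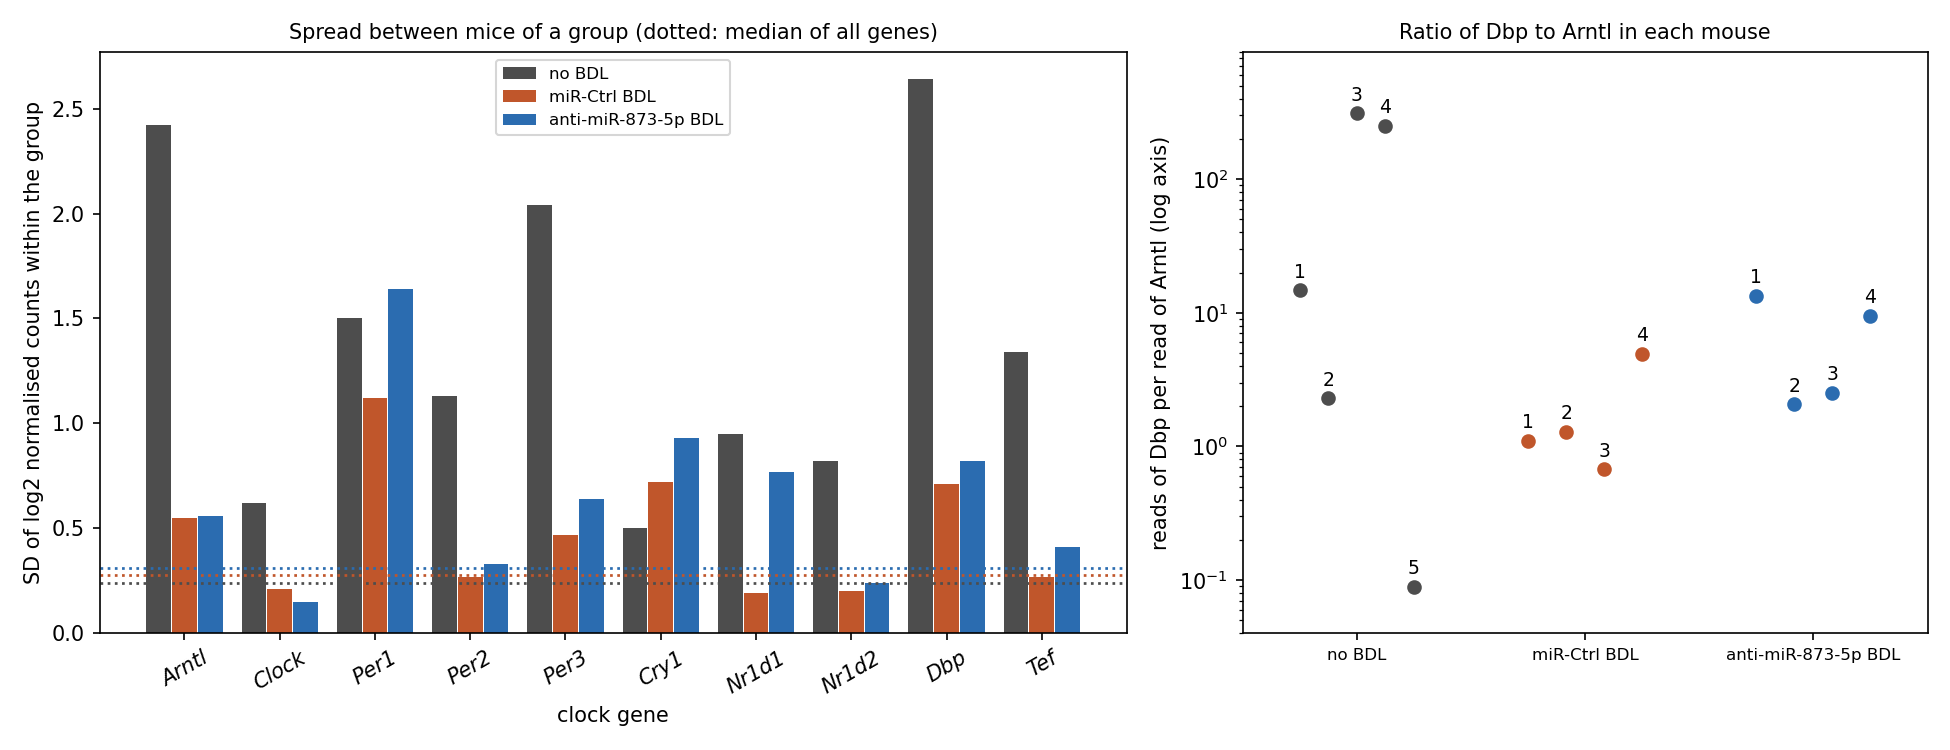
Left, SD of log2 normalised CPM between mice of a group for each clock gene (bars), with the median SD over 12645 genes as a dotted line per group. Right, reads of Dbp per read of Arntl in each mouse (log axis), which run from 0.0892 to 312 in no BDL mice and from 0.677 to 13.4 in the 8 BDL mice.

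No BDL mouse 5, the mouse with the lowest Dbp, also differed in other measures. Its summed macrophage and leukocyte markers (6 of 6 genes, none at 0 in every mouse) reached 456 CPM, against 95.3 to 231 in the other no BDL mice and 293 to 982 in the BDL mice. Mt2, a metallothionein induced by glucocorticoids and inflammation and named here after its values were seen, was at 334 CPM in mouse 5 and at 1.43 to 12.9 in the other no BDL mice. Mouse 1 stood apart in the 10 immediate early genes, with a sum of 1290 CPM against 79.6 to 314 in the other no BDL mice. The part of these differences in the clock gene levels was not tested.

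The first comparison asked what ligation with the control oligonucleotide did. Nr1d1 fell in miR-Ctrl BDL, to 44.9, 41.6, 39.7 and 53.3 CPM in mice 1 to 4. All 4 were below no BDL mice 1 to 4 and above mouse 5, so the groups overlapped through 1 mouse. The log2 fold change was -1.47 ± 0.38 (SE, n = 4 and 5, adjusted p = 0.0145, from the quasi-likelihood test of edgeR, Benjamini-Hochberg adjusted over all genes, as for all adjusted p here). It was the only 1 of the 10 members to pass an adjusted p of 0.05, where 35.7% of all 13072 genes tested passed. Between these groups 0 of 10 members had values that did not overlap, against 29.6% of all genes. The members' median log2 fold change was -0.78, beside -0.01 over all genes. With library size alone as the scale, which moves the median of all genes to 0.79, Nr1d1 gave -0.65 and was not called (adjusted p = 0.128).

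Neither output factor passed the threshold, and Dbp had the largest fitted difference of the 10 members. Dbp was at 15.4, 15.3, 9.25 and 30.6 CPM in miR-Ctrl BDL, with a log2 fold change of -2.49 ± 0.94 (adjusted p = 0.0628). Tef was at 44.9, 59.2, 61.2 and 71.0 CPM, with -1.26 ± 0.53 (adjusted p = 0.0907). For both genes, every miR-Ctrl BDL mouse was lower than no BDL mice 1 to 4 and higher than mouse 5.

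Among the repressors, Per3 was at 6.02, 7.87, 6.5 and 12.5 CPM (log2 fold change -1.54 ± 0.75, adjusted p = 0.139). Per2 was at 10.7, 12.3, 15 and 16.2 CPM (-0.91 ± 0.47, adjusted p = 0.154). Nr1d2, the second REV-ERB gene, was at 38.7, 37.4, 48.7 and 47.6 CPM (-0.64 ± 0.33, adjusted p = 0.16). For Per2 and Nr1d2 every miR-Ctrl BDL mouse was again lower than no BDL mice 1 to 4 and higher than mouse 5, while the values of Per3 overlapped with mouse 2. The activators gave small differences with wide errors. Arntl was at 14, 11.9, 13.7 and 6.18 CPM with a log2 fold change of 0.27 ± 0.85 (adjusted p = 0.83), and Clock gave -0.05 ± 0.31 (adjusted p = 0.914).

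The count of members called rested on no BDL mouse 5. Without that mouse 6 of 10 members were lower in miR-Ctrl BDL, where 37.4% of all genes passed. These were Per2 (-1.16, adjusted p = 0.0197), Per3 (-1.84, adjusted p = 0.02), Nr1d1 (-1.70, adjusted p = 0.000223), Nr1d2 (-0.86, adjusted p = 0.0046), Dbp (-2.80, adjusted p = 0.00495) and Tef (-1.53, adjusted p = 0.00542). The 4 that did not pass were Arntl, Clock, Per1 and Cry1. Leaving out any other single mouse left the count at 1. Leaving out miR-Ctrl mouse 3 as well as mouse 5 left it at 6, an alternative chosen after the data were seen. In that fit 3156 genes were called higher and 2908 lower of 13349. With mouse number as a block, in which mouse 5 has no partner and adds nothing to the group difference, 6 members were also called. Of all 13072 genes 2168 were called higher and 1895 lower in the block fit.

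The second comparison put the mice with ligation and anti-miR-873-5p against no BDL. None of the 10 members passed the threshold in edgeR's test (0 of 10, with 0 at an unadjusted p under 0.05 and 0 in DESeq2's Wald test), where 21.5% of all 13130 genes did. The members' values overlapped between the groups in every case (0 of 10 without overlap, against 18.3% of all genes), and their median log2 fold change was -0.36 beside -0.01 over all genes. Nr1d1 was at 113, 30.6, 61.8 and 51.9 CPM in anti-miR-873-5p mice 1 to 4, with a log2 fold change of -0.94 ± 0.47 (adjusted p = 0.179). Mouse 1 was level with the lowest of no BDL mice 1 to 4, mouse 2 was below mouse 5 and the others lay between. Dbp was at 78.8, 25.6, 24.9 and 52.7 CPM (-1.12 ± 0.89, adjusted p = 0.403).

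The remaining members gave log2 fold changes of -0.39 to 0.48, each smaller than its SE. Without no BDL mouse 5 Nr1d1 passed (-1.18, adjusted p = 0.0424) and the other 9 did not, where 23.6% of all genes passed.

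**Figure D3:**
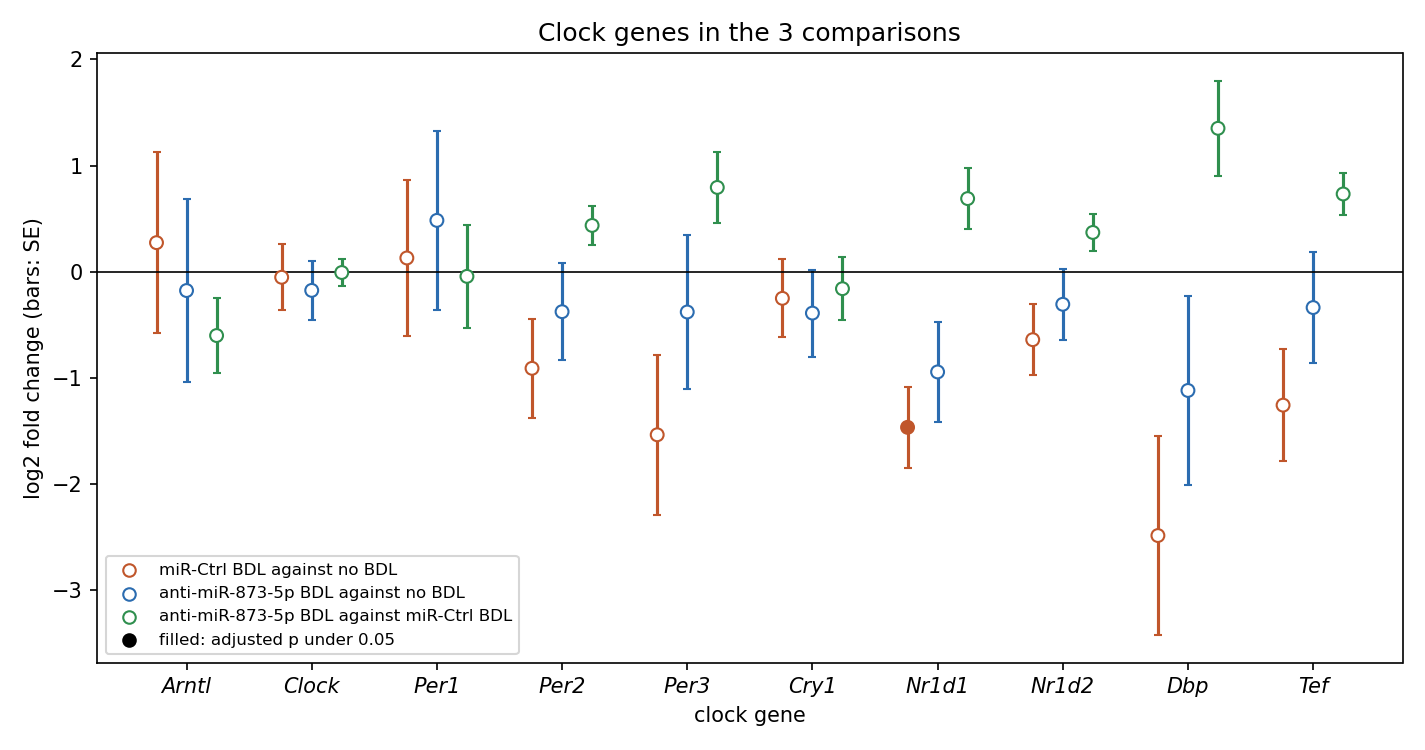
Log2 fold change of each clock gene with its SE in the 3 comparisons, from edgeR fits with 4 against 5 mice (both comparisons with no BDL) and 3 against 3 mice (both BDL groups). Filled points have an adjusted p under 0.05, which holds for Nr1d1 in miR-Ctrl BDL against no BDL (-1.47).

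Per1 and Cry1 were highest in the same mouse of each BDL group. Per1, a repressor that glucocorticoids also induce directly, was at 13.1, 25.9, 79.7 and 19.3 CPM in miR-Ctrl BDL and at 10.7, 120, 34.7 and 11.5 CPM in anti-miR-873-5p BDL. The highest value came from mouse 3 in the miR-Ctrl group and from mouse 2 in the anti-miR-873-5p group. Cry1 was at 4.88, 5.31, 13 and 4.38 CPM in the first group and at 2.5, 12, 4.71 and 5.80 CPM in the second, again with these mice highest. The ratio of Per1 to Per2 reads was not planned in advance. It was 5.32 and 4.73 in these mice and 0.472 to 2.15 in the other 11, and high Per1 raises it by construction. Against no BDL the log2 fold change of Per1 was 0.13 ± 0.73 (adjusted p = 0.911) with miR-Ctrl and 0.48 ± 0.84 (adjusted p = 0.716) with the inhibitor. Its sign turned when the mouse was left out, to -0.69 without miR-Ctrl mouse 3 and -0.72 without anti-miR-873-5p mouse 2.

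Both mice also had the highest level of their group in most genes induced by glucocorticoids or fasting. This held for 8 of 9 and 8 of 10 genes in miR-Ctrl mouse 3 (not for Tsc22d3, G6pc and Lpin1, named after their values were seen) and for 9 of 9 and 10 of 10 in anti-miR-873-5p mouse 2. The share of all genes that were highest in these mice was not determined, so these counts cannot be set against it. Tsc22d3 was at 20.7 CPM in miR-Ctrl mouse 3, the lowest of 13 mice, and G6pc at 40.7 CPM against 261 to 1210 in no BDL mice. The summed level of the 9 glucocorticoid-induced genes was 7720 and 7660 CPM in them against 1110 to 2830 in the other 11 mice, and that of the 10 fasting-induced genes was 8890 and 10300 against 1650 to 6490. Fkbp5, a glucocorticoid receptor co-chaperone, was at 113 and 240 CPM against 25.4 to 64.2 elsewhere. Tat, a tyrosine-degrading enzyme induced by glucocorticoids, was at 3540 and 4840 CPM against 424 to 1150. Igfbp1, a fasting-induced binding protein of insulin-like growth factors, was at 3230 and 1850 CPM against 18.7 to 522 (Tat and Igfbp1 were named after their values were seen). In both mice Tat, Mt2 (2690 and 826 CPM) and Errfi1 (1220 and 1460 CPM) made up most of the glucocorticoid-induced sum. Fkbp5, Tat, Mt2 and Sgk1 were above every no BDL mouse in both, and Errfi1 was within the no BDL range. In miR-Ctrl mouse 3 Klf9 (42.3 CPM) was below every no BDL mouse, and Dusp1 and Zbtb16 were within their range. In anti-miR-873-5p mouse 2 Dusp1 (38.2 CPM) was below that range, Tsc22d3 within it and Klf9 and Zbtb16 above it. The part of these states in the Per1 and Cry1 levels was not tested.

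**Figure D4:**
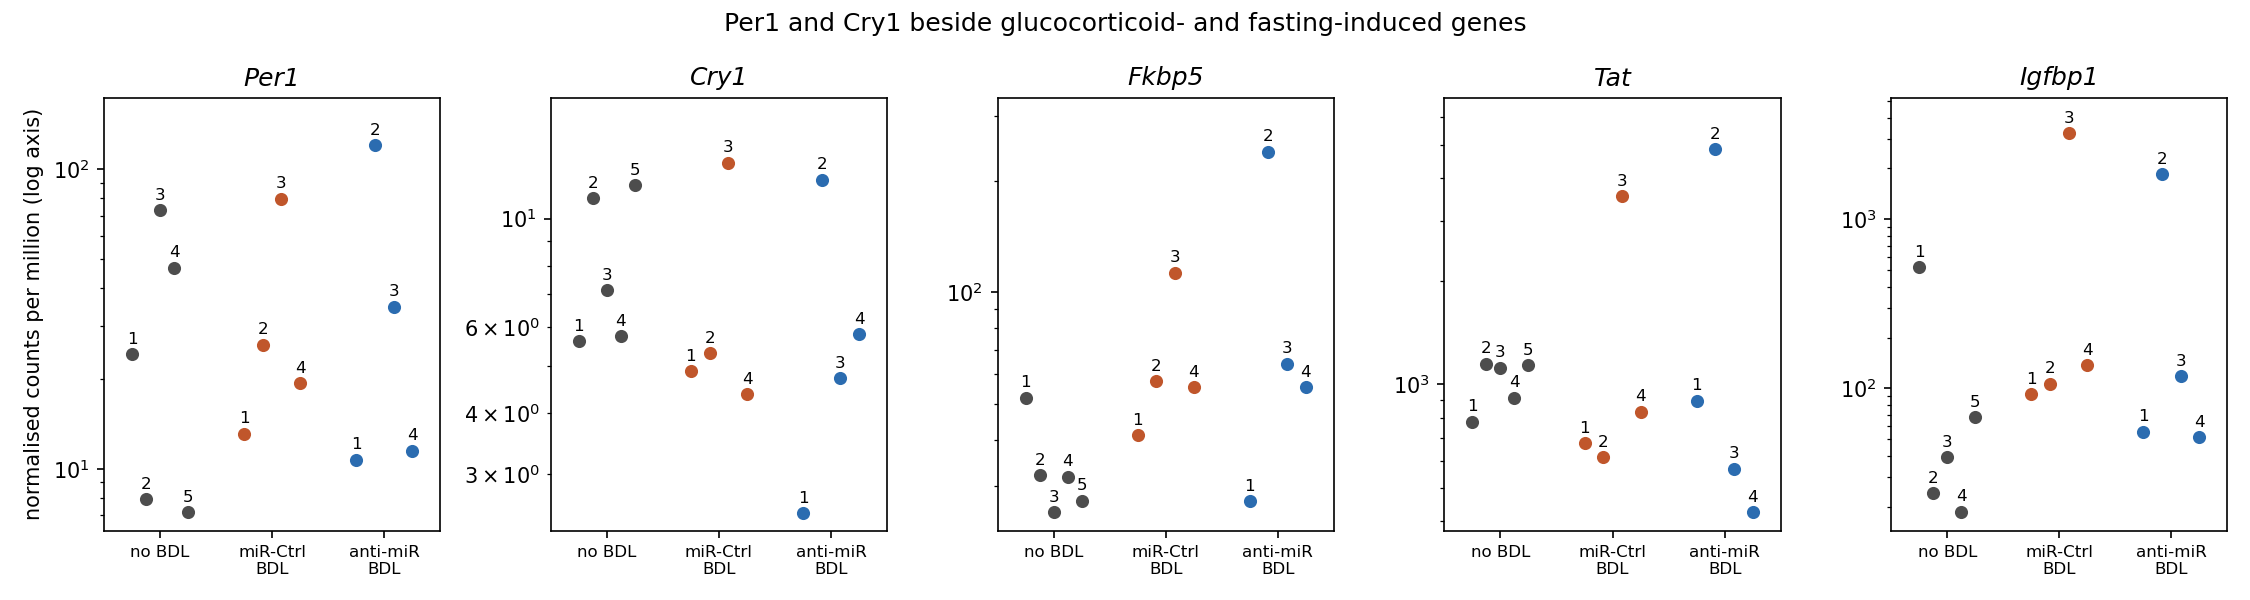
Levels of Per1, Cry1, Fkbp5, Tat and Igfbp1 in normalised CPM (log axis) in each mouse, with mouse numbers. The miR-Ctrl BDL mouse 3 and the anti-miR-873-5p BDL mouse 2 are the highest of their groups in all 5 genes, at 79.7 and 120 for Per1.

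The third comparison asked whether anti-miR-873-5p changed the clock genes after ligation, with 3 mice per group. No gene passed an adjusted p of 0.05 in edgeR's test (0% of 13746), with 863 at an unadjusted p under 0.05 and 30 called by DESeq2's Wald test, and 0 of the 10 members were called by either. Tef was the member whose groups did not overlap, where 11.4% of all genes did not. It was at 44.9, 59.2 and 71.0 CPM in miR-Ctrl mice 1, 2 and 4 and at 108, 78.1 and 105 CPM in anti-miR-873-5p mice 1, 3 and 4, a log2 fold change of 0.73 ± 0.20 (n = 3 and 3, adjusted p = 0.757 by edgeR). The 2 mice outside this table did not break the order, with 61.2 CPM in miR-Ctrl mouse 3 and 157 CPM in anti-miR-873-5p mouse 2. With all 4 mice per group the log2 fold change of Tef was 0.93 (adjusted p = 0.98).

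Dbp, both REV-ERB genes, Per2 and Per3 had the sign of Tef, also without passing. Dbp gave 1.35 ± 0.45 (adjusted p = 0.757), Per3 0.79 ± 0.34, Nr1d1 0.69 ± 0.29 and Per2 0.44 ± 0.19 (adjusted p = 0.775 for all 3), and Nr1d2 0.37 ± 0.17 (adjusted p = 0.781). Arntl had the opposite sign at -0.60 ± 0.35 (adjusted p = 0.811). Clock (-0.01 ± 0.13), Per1 (-0.04 ± 0.48) and Cry1 (-0.16 ± 0.30) were near 0. The members' median was 0.40 beside 0.01 over all genes. For Nr1d1, anti-miR-873-5p mouse 2, which is not in this fit, was at 30.6 CPM. That is below all miR-Ctrl mice (39.7 to 53.3 CPM) and against the sign given. The fall of Nr1d1 that passed the threshold with miR-Ctrl and not with anti-miR-873-5p is thus not shown to differ between the BDL groups (adjusted p = 0.775).

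The location of the genes limits 2 of these readings. The library kit keeps no strand, and Dbp (chr7:45705100-45710203) shares 18.01% of its exon bases with Sphk2 on the other strand, while Nr1d1 (chr11:98767932-98775377) shares 8.55% with Thra. Reads from these shared ends cannot be told apart. Sphk2 also fell in miR-Ctrl BDL against no BDL, by 1.10 on the log2 scale (SE 0.27, adjusted p = 0.0115), and Thra by 0.77 (SE 0.22, adjusted p = 0.0233). Tef shares 2.45% of its exon bases with Gm17597 and Arntl 0.44% with Gm45355, and the other 6 members share none. Of the 50-base windows of Nr1d2, 5.13% also occur in AC170187.1, so that reads there could be split. The counts of 8 members were identical in all tables. Nr1d1 differed by at most 2 reads, and the counts of Clock were the same in both tables with anti-miR-873-5p mice and lower in the remaining table. The levels of Clock over 13 mice come from the first 2 tables, and its fold changes from each table alone.

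Of 14 other clock genes, 3 rose and 3 fell in miR-Ctrl BDL against no BDL (median -0.04), beside 35.7% of all genes called. The kinases that phosphorylate PER proteins rose, Csnk1d by 0.45 ± 0.11 (adjusted p = 0.00887) and Csnk1e by 0.82 ± 0.15 (adjusted p = 0.00261). Their values did not overlap between the groups, at 75.3 to 106 against 61.8 to 67.1 CPM for Csnk1d and 10 to 14.5 against 5.53 to 7.73 CPM for Csnk1e. Timeless, which acts mainly at the replication fork in mammals, rose by 1.08 ± 0.29 (adjusted p = 0.0165). Hlf, the third PAR bZIP factor, fell to 12.9, 14.2, 13.9 and 16.5 CPM from 38.4, 43.8, 52.7, 56.0 and 19.6, with a log2 fold change of -1.52 ± 0.27 (adjusted p = 0.00221) and no overlap even with mouse 5. Bhlhe41 (-2.59 ± 0.78, adjusted p = 0.0275), a repressor at E-boxes, and Cry2 (-0.75 ± 0.23, adjusted p = 0.0314) fell too. Bhlhe41 was low, at a mean of 0.43 CPM in miR-Ctrl BDL. Its mean in the same no BDL mice was 2.58 CPM in this fit and 7.23 CPM in that with anti-miR-873-5p.

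These calls held unevenly when mice were left out. Csnk1d, Csnk1e, Timeless and Hlf passed whichever single mouse was left out. Bhlhe41 and Cry2 failed, leaving 4 calls, without no BDL mouse 3, no BDL mouse 4, miR-Ctrl mouse 1 or miR-Ctrl mouse 4, both also failed without miR-Ctrl mouse 2 (5 calls), and Cry2 failed without no BDL mouse 2. With anti-miR-873-5p and ligation, Csnk1e (0.82 ± 0.14, adjusted p = 0.00503) and Csnk1d (0.36 ± 0.11, adjusted p = 0.041) rose and Bhlhe41 fell (-2.73 ± 0.68, adjusted p = 0.021), 3 of 14 beside 21.5% of all genes. Hlf gave -0.82 ± 0.29 (adjusted p = 0.0687). Csnk1e alone was called in every fit that left out 1 mouse, while Csnk1d and Bhlhe41 both failed without anti-miR-873-5p mouse 3 or mouse 4, leaving 1 call, and Csnk1d failed without any 1 of the 5 no BDL mice or without anti-miR-873-5p mouse 2. Between the BDL groups 0 of the 14 were called by edgeR or by DESeq2, and the log2 fold changes of Csnk1d and Csnk1e were -0.10 ± 0.11 and -0.07 ± 0.18.

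The other 8 genes did not pass in either comparison with no BDL. In miR-Ctrl BDL their log2 fold changes were 1.36 for Arntl2, 0.82 for Nfil3, 0.53 for Npas2, 0.12 for Rora, -0.21 for Bhlhe40, -0.34 for Btrc, -0.70 for Fbxl21 and -1.97 for Ciart. Several carried the no BDL pattern of the members. Npas2, which can replace Clock, had 9, 32, 1, 0 and 91 reads in no BDL mice 1 to 5, and Nfil3, a repressor at D-boxes, was at 23.3, 32.8, 10, 8.38 and 40.3 CPM, both in the order of Arntl. Ciart, a repressor of the Clock and Arntl pair, was at 4.92, 1.72, 31.9, 19.9 and 0.239 CPM, in the order of Dbp. In all, 3 of 11 genes with a value in every mouse had the order of Dbp extremes (Hlf, Bhlhe40 and Ciart) and 2 its reverse (Npas2 and Nfil3). Rora had very different counts for the same no BDL mice in their 2 tables. It was at 0.135 to 0.949 CPM in the table with miR-Ctrl mice and at 32.65 to 41.36 CPM in that with anti-miR-873-5p mice.

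**Figure D5:**
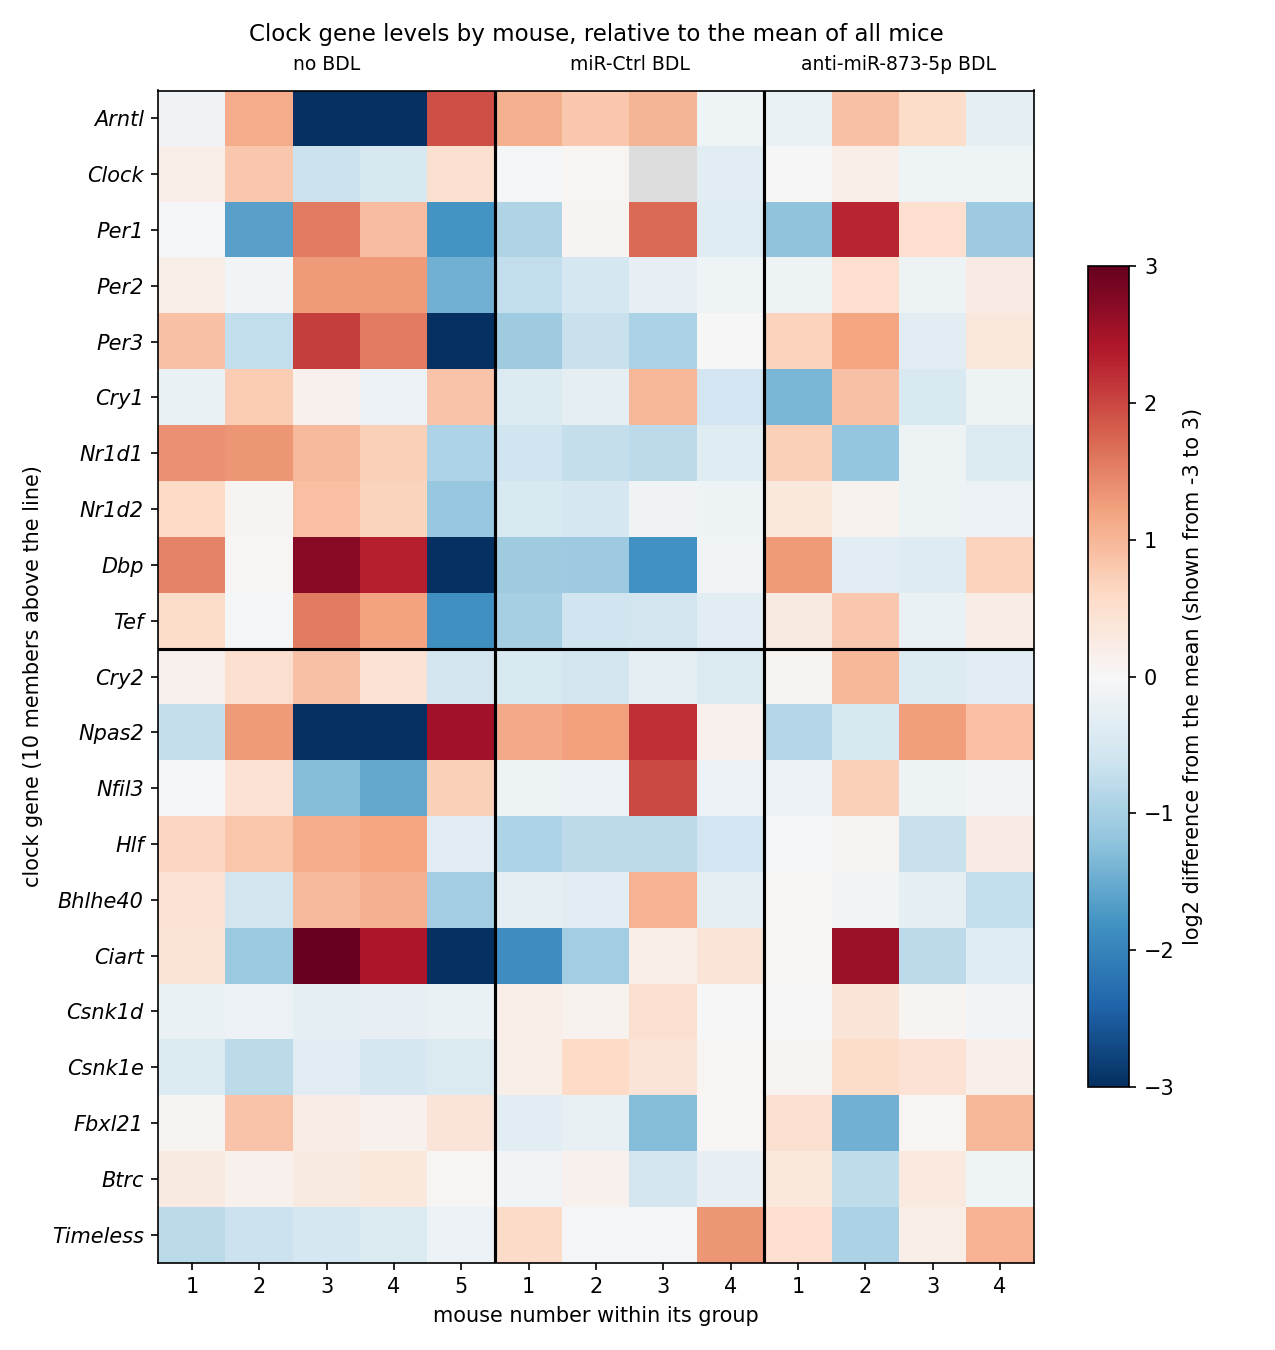
Level of 10 members (above the line) and 11 other clock genes in each of 13 mice, as the log2 difference from the gene's mean over the mice (levels under 0.05 set to 0.05, colour limited to -3 and 3, grey without a value). In no BDL mice 3 and 4 Dbp, Ciart and the Per genes are high and Arntl and Npas2 low, and mouse 5 shows the reverse.

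Of 16 rhythmic liver output genes, 4 fell in each comparison with no BDL and none rose (median -0.41 in miR-Ctrl BDL and 0.20 in anti-miR-873-5p BDL). Of all genes 35.7% and 21.5% were called in these comparisons. These were Elovl3, a fatty acid elongase, Upp2, a uridine phosphorylase, Gys2, the liver glycogen synthase, and Klf10, a transcriptional repressor. The log2 fold changes with miR-Ctrl were -6.30 ± 0.83 (adjusted p = 0.000586), -4.13 ± 0.95 (adjusted p = 0.00823), -1.86 ± 0.45 (adjusted p = 0.0107) and -1.73 ± 0.61 (adjusted p = 0.0489). With anti-miR-873-5p they were -4.82 ± 1.07 (adjusted p = 0.0132), -3.08 ± 0.99 (adjusted p = 0.0498), -1.54 ± 0.46 (adjusted p = 0.0389) and -1.56 ± 0.48 (adjusted p = 0.0443). The comparisons share the no BDL mice. For these mice the values of Upp2 differed between the fits, at a mean of 219.5 CPM in that with miR-Ctrl and 278.4 CPM in that with anti-miR-873-5p. Elovl3 was at 291, 424, 44.4, 75.9 and 491 CPM in no BDL mice, in the direction of Arntl, and at 1.86 to 28.1 in the BDL mice, with no overlap.

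Gys2, by contrast, was at 178, 120, 456, 313 and 88.3 CPM in no BDL mice, in the order of Dbp, and at 48.1 to 107 in the BDL mice. The call of Klf10 in miR-Ctrl BDL failed without any 1 of no BDL mice 1, 3 and 4 or miR-Ctrl mice 1, 2 and 4. In anti-miR-873-5p BDL Elovl3 was the only 1 of the 4 still called without no BDL mouse 1, 3 or 4 or anti-miR-873-5p mouse 3 or 4. Between the BDL groups 0 of 16 were called by edgeR, and DESeq2 called Cyp7a1, the rate-limiting enzyme of bile acid synthesis, higher with anti-miR-873-5p. It was at 48.1, 49.8 and 45.6 CPM against 210, 64.4 and 202 CPM in the mice of that table, and at 0.5 CPM in miR-Ctrl mouse 3 and 0.607 CPM in mouse 2 of the other BDL group, which are not in it.

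The state lists gave few calls, beside 35.7% of all genes called with miR-Ctrl and 21.5% with anti-miR-873-5p. In miR-Ctrl BDL against no BDL, 1 of 9 glucocorticoid-induced genes rose (Fkbp5, 1.00) and 2 fell (Dusp1, -1.42, and Klf9, -1.01). Of 10 fasting-induced genes 1 rose (Pdk4, 2.95) and 2 fell (G6pc, -3.28, and Lpin1, -1.67), of 9 feeding-induced genes 3 fell (Me1, -1.59, Srebf1, -1.27, and Elovl6, -1.24), and of 10 immediate early genes 1 rose (Ier3, 5.25). In anti-miR-873-5p BDL Dusp1 (-1.41) and G6pc (-2.44) fell, Ier3 rose (4.01) and no feeding-induced gene was called. Without miR-Ctrl mouse 3 the fasting-induced genes had 6 calls lower and 0 higher, and without no BDL mouse 3 or 4 they had 1 lower and 0 higher. The feeding-induced genes had 0 calls without no BDL mouse 1, no BDL mouse 4 or miR-Ctrl mouse 2, and 1 without no BDL mouse 3, miR-Ctrl mouse 1 or miR-Ctrl mouse 3. The immediate early genes had 5 calls higher without no BDL mouse 1, and the glucocorticoid-induced genes 4 lower without miR-Ctrl mouse 3. With anti-miR-873-5p, 8 feeding-induced genes were called lower and 2 glucocorticoid-induced genes higher without anti-miR-873-5p mouse 1, and the fasting-induced genes had 0 calls without anti-miR-873-5p mouse 3 and 2 without anti-miR-873-5p mouse 2.

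The genes most like 3 of the members over the 13 mice were found by the root mean square difference of mean-centred log2 CPM, among 12636 other genes. Nearest to Arntl were Npas2, Tubb2b and Tubb2a (0.84 each), 4930447K03Rik (0.85) and Klhdc8a (0.88). For Dbp they were Dlec1 (0.98), Phf19 and Slc2a5 (1.08 each), Wee1 (1.09) and Acss3 (1.13). For Nr1d1 they were Aspa (0.39), Ugt2a3 (0.40), Sntg2 (0.41), Bphl (0.42) and Thra (0.43), of which Thra shares exon bases with it. Npas2 and Wee1, a cell cycle kinase under clock control, were on the lists of clock and output genes. Tubb2a and Tubb2b are near-identical tubulin genes whose reads the counting could split.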

How the data were processed

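Liver RNA was measured by sequencing in 13 mice. The authors prepared TruSeq RNA v2 libraries, read 50 nt from 1 end and mapped to mm10 with TopHat. The submitters' processing notes also name CASAVA 1.8.2, FastQC, Trim Galore and DESeq2. The authors deposited raw counts of reads per Entrez gene, 1 table per comparison, and the counting program is not given in the sources used here. All value columns were used (0 left out). Symbols and coordinates came from RefSeq (GRCm38), with 23709 of 23785 gene numbers matched. Overlaps used GENCODE M21 exons.

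Mice were grouped by their titles. Genes were kept with filterByExpr, scaled by TMM and tested with edgeR 4.0.16's quasi-likelihood test in R 4.3.3, with Benjamini-Hochberg adjustment over all genes at 0.05. The SE is the absolute log2 fold change over the square root of F. Alternatives were other scalings and filters, DESeq2 1.42.0, all 13 mice in 1 fit, a replicate block, an adjusted p of 0.1 and leaving out each mouse. The scale of all 13 mice used the 22246 genes whose counts were identical in the tables. A prior count of 0.5 was added before logs. Spread was compared over genes with a mean of at least 10 reads. The fits were tested on simulated data. Nothing says whether the mice of a group were handled on separate days, so p-values measure the spread between these mice. PCR reads are not independent molecules.

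The members and lists were chosen with earlier results of these data known. Named are the 10 members, 14 other clock genes (2 more on that list are not reported here), the genes past the threshold on the remaining lists (at most 6 with the largest change per list) and the 5 genes most like Arntl, Dbp and Nr1d1.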

Additional observations from a re-analysis of the deposited data

Results flagged for a closer look

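In miR-Ctrl BDL, mouse 3 lay far from the other 3 mice in Cry1. It was at 13 CPM, the others were at 4.38 to 5.31 CPM, and the gap was 0.893 of the group's range, above Dixon's 95% limit for 4 values. This was 1 of 29 groups of 4 or 5 mice examined over the 10 members, and chance alone marks about 1 in 20. The wide values of no BDL mice in Arntl and Dbp did not meet this limit, because several mice lay apart rather than 1.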

How the results depend on the processing

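Of 502 alternatives for the members' fold changes, 432 kept direction and side of the threshold, 48 turned sign, 21 newly passed and 1 no longer passed. The last was Nr1d1 in miR-Ctrl BDL against no BDL with library size alone (-0.65), and its call held whichever single mouse was left out. The number of members called in that comparison was 1, and it was 3 at an adjusted p of 0.1, 3 with DESeq2, 6 with the replicate block, 1 to 6 without 1 mouse (6 without no BDL mouse 5) and 6 without that mouse and miR-Ctrl mouse 3. Against no BDL with anti-miR-873-5p it was 0, and 1 with library size alone, 1 with the replicate block, 0 to 1 without 1 mouse and 1 with no BDL mouse 5 and mouse 2 of anti-miR-873-5p left out. The genes called in all were 4666, 2823 and 0 in the 3 comparisons, and 3775 to 5710, 1261 to 4317 and 0 to 1 without 1 mouse. With library size alone the first 2 were 9635 and 10194, without the 20 most counted genes the second was 4745, and without no BDL mouse 5 and anti-miR-873-5p mouse 2 it was 4819. DESeq2 called 30 in the third. Library size alone moved the median of all genes to 0.79 and 0.82, and calls to 9360 higher and 275 lower and to 10063 and 131, from 2491 and 2175 and from 1715 and 1108. Without the 20 most counted genes these were 5250 and 732, and 4410 and 335.

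Signs turned mostly for members near 0. In miR-Ctrl BDL against no BDL these were, with library size alone, Clock 0.80, Cry1 0.52 and Nr1d2 0.12, without the 20 most counted genes Clock 0.32 and Cry1 0.064, with the replicate block Clock 0.15 and Per1 -0.11, and without both mice Per1 -0.94. With anti-miR-873-5p against no BDL they were, with library size alone, Arntl 0.69, Clock 0.69, Per2 0.39, Per3 0.32, Cry1 0.42, Nr1d2 0.47 and Tef 0.40, without the 20 genes Arntl 0.18, Clock 0.18 and Nr1d2 0.016, with the replicate block Arntl 1.3, Clock 0.025 and Per1 -0.43, and without both mice Arntl 0.40 and Per1 -0.98. Between the BDL groups they were Clock 0.024 (library size alone) and 0.10 (replicate block), and Per1 0.36 (13 mice in 1 fit) and 0.37 (all 4 mice per group).

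Leaving out 1 mouse turned signs with these ranges. In miR-Ctrl BDL against no BDL they were Arntl -0.036 to 1.09, Clock -0.22 to 0.21 and Per1 -0.69 to 0.68. With anti-miR-873-5p against no BDL they were Arntl -0.50 to 0.63, Clock -0.35 to 0.041, Per1 -0.72 to 1.03 and Per3 -0.68 to 0.087 (-0.95 without both mice). Between the BDL groups they were Clock -0.12 to 0.074, Cry1 -0.43 to 0.11 and Per1 -0.81 to 0.23. The cause of these changes was not tested. Same-numbered mice deviated together with correlations of -0.198 to 0.349, not above 0.1 in every pair, so the numbers are not taken as pairs. By construction, no BDL mouse 5 has no partner in the replicate block. Depth limits the level of Arntl in no BDL mice 3 and 4, with 8 reads each. All alternatives without 2 mice were chosen after the data were seen.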
